A study of Mus musculus with 4 samples.

Results

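The cells described here are 451 of 42576 cells, or 1.06%, in 4 libraries of mouse cerebellum, and they were chosen by the UMIs of 17 genes. Each had at least 1 UMI (a unique molecular identifier, which marks 1 captured RNA molecule) of Neurod1 and of Grin2b. Each had no UMI of Nhlh1, Cntn2, Atoh1, Mki67, Top2a, Gad1, Gad2, Pax2 or Eomes, and UMIs of fewer than 2 of the genes Gabra6, Grin2c, Cbln3, Calb2, Grin2a and Nebl. The rule was meant to catch granule neurons between the newborn and the mature state. The data go against that name for a large share of the cells, as described below, so they are called Neurod1 and Grin2b cells here.

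Granule neurons arise after birth from Atoh1 progenitors on the surface of the cerebellum, leave the cell cycle, switch on Neurod1, and extend parallel fibres while their cell bodies move inward. Newborn neurons carry Nhlh1, a transcription factor, and Cntn2, an adhesion molecule of growing axons. As they settle and receive synapses, granule neurons replace the NMDA receptor subunit of Grin2b with those of Grin2a and Grin2c and gain the GABA receptor subunit of Gabra6.

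Whole cerebella were dissociated with trypsin after removal of the meninges, and droplet-based single-cell libraries were sequenced. The groups were Eftud2 conditional knockout (cKO) at postnatal day 10 (P10), wild type (WT) at P10, cKO at P14 and WT at P14, with 1 library each. Eftud2 encodes a GTPase of the U5 snRNP of the spliceosome, and the series title names Purkinje cells as the deficient cells. The labels give neither the Cre driver, nor the deleted exon, nor the sex or number of animals behind a library.

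The libraries held 92315263 UMIs (P10 cKO), 158017834 (P10 WT), 91091692 (P14 cKO) and 145731767 (P14 WT). The 4 groups had 6593, 14280, 6308 and 15395 cells with at least 500 genes and at most 20% mitochondrial UMIs. With 1 library per group a difference at 1 age has no replicate check, so values below carry exact 95% intervals that cover counting error only, and no p. No barcode of a Neurod1 and Grin2b cell was shared between libraries, and 7 to 76 barcodes of all cells were shared per pair of libraries. Xist, the RNA of the inactive X, stood at 1.58 CPM (UMIs per 1000000 UMIs) in the Neurod1 and Grin2b cells of P10 cKO, 1381 CPM in P10 WT, 1126 CPM in P14 cKO and 1206 CPM in P14 WT, and the Y-linked gene Uty at 117 CPM in P10 cKO and 0 CPM in the other 3 libraries. The P10 cKO library thus differed from its control in sex-linked RNA, and the part of this in the P10 values was not tested.

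Of the 451 cells, 49 came from P10 cKO, 49 from P10 WT, 94 from P14 cKO and 259 from P14 WT. They made up 0.743% (exact binomial interval 0.550 to 0.981) of P10 cKO cells against 0.343% (0.254 to 0.453) of P10 WT cells, and 1.49% (1.21 to 1.82) of P14 cKO cells against 1.68% (1.49 to 1.90) of P14 WT cells. The ratio of cKO to WT was 2.17 (1.43 to 3.29) at P10 and 0.886 (0.692 to 1.13) at P14. Their median depth was 10089 UMIs in P10 cKO, 4811 in P10 WT, 4533 in P14 cKO and 4147 in P14 WT. When each cell was thinned to 2000 UMIs before the rule, the shares were 4.36% of 6335 cells in P10 cKO, 0.491% of 12615 in P10 WT, 6.83% of 5577 in P14 cKO and 4.82% of 14298 in P14 WT. The ratio at P14 then lay above 1, at 1.42 (1.25 to 1.61), so the direction at P14 changed with thinning. At P10 the ratio lay below 1, at 0.407 (0.352 to 0.469), with Grin2b not required, and its interval included 1 where no mature gene was allowed, at 1.49 (0.845 to 2.57). Grin2b is a gene with long introns and the P10 matrices came from different Cell Ranger versions, so genotype and processing cannot be told apart in the P10 share.

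Among cells with both required genes, the absence of Nhlh1 and Cntn2 was the step of the rule that left out most. Neurod1 and Grin2b UMIs occurred together in 3280 cells of P10 cKO, 1514 of P10 WT, 3001 of P14 cKO and 7050 of P14 WT. Nhlh1 or Cntn2 was present in 94.1%, 93.4%, 88.5% and 92.8% of them in that order of groups. The cells kept were 1.49%, 3.24%, 3.13% and 3.67% of those with both genes.

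Many cells sat at the edge of the rule. A single Neurod1 UMI was present in 35 cells of P10 cKO, 25 of P10 WT, 54 of P14 cKO and 136 of P14 WT, which is 250 of 451 or 55.4%. A single Grin2b UMI was present in 25, 38, 43 and 83 cells, and 116 cells, or 25.7%, had 1 UMI of each gene. Just outside, 181, 1176, 352 and 552 cells met all else but had no Grin2b UMI, and 68, 51, 89 and 331 met all else but had 1 UMI of 1 excluded gene. Of the 6 genes of mature granule neurons, none was detected in 24, 35, 42 and 151 cells and 1 in 25, 14, 52 and 108 cells, while 6, 4, 22 and 23 cells outside the rule had 2. The one detected was mostly Nebl, which encodes a protein of actin filaments, with UMIs in 22, 12, 46 and 103 cells.

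The required genes lie on 2 chromosomes of the mm10 build. Neurod1, a basic helix-loop-helix transcription factor, spans chromosome 2 from 79452521 to 79456751 on the minus strand, with 1502 intron bases. Grin2b, which encodes the GluN2B subunit of NMDA receptors, spans chromosome 6 from 135713233 to 136173511 on the minus strand, with 435437 intron bases. The further markers given for these cells are Unc5d, a netrin receptor gene of the Unc5 family (chromosome 8, 28646717 to 29219636, minus strand), and Zmat4, a zinc finger gene (chromosome 8, 23636019 to 24156585, plus strand).

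Markers of other cell types were abundant among the Neurod1 and Grin2b cells. Each cell was given the marker list with the most UMIs, if that list had at least 3. The granule lineage list (Pax6, Zic1, Zic2, Neurod2, Barhl1, Meis1, Etv1, Cbln1) led in 194 cells (43.0%), a list of another type led in 215 (47.7%), and none led in 42 (9.31%). Of the other types, astroglia (Slc1a3, Aqp4, Gfap, Aldoc, Gdf10) led in 128 cells, oligodendrocytes in 31, microglia in 29, fibroblasts in 9, endothelial cells in 7, choroid plexus in 6 and oligodendrocyte precursors in 5. Interneuron, unipolar brush cell and Purkinje lists led in 0 cells, and some of the interneuron and brush cell markers were excluded by the rule itself. At least 3 markers of 1 list other than granule lineage were detected in 203 cells (45.0%), and at least 3 granule lineage markers in 288 (63.9%).

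**Figure D1:**
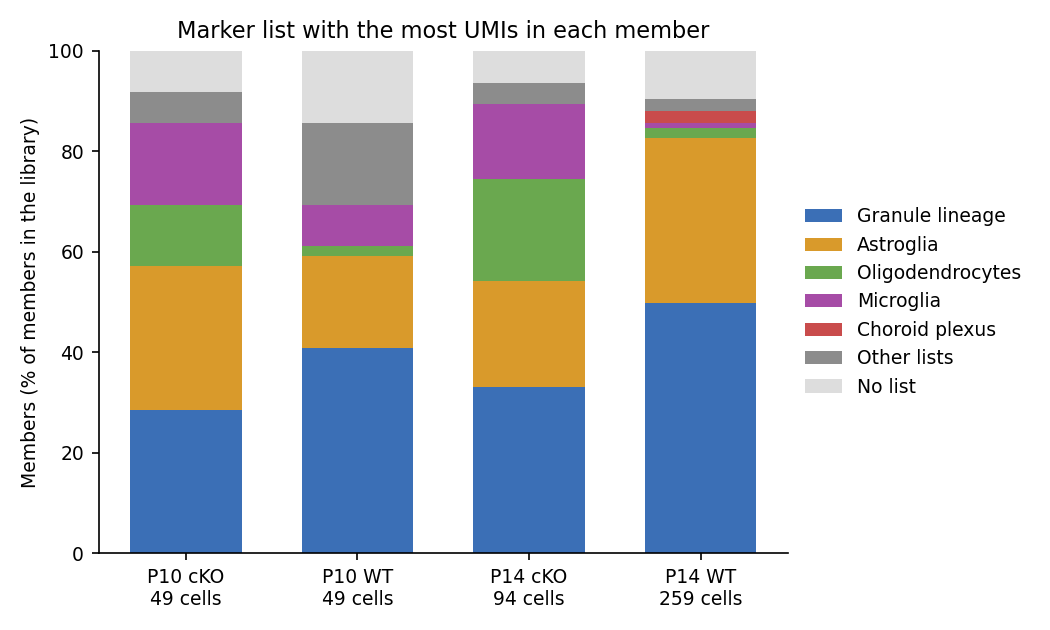
Share of Neurod1 and Grin2b cells (percent of such cells in each library) by the marker list with the most UMIs, for P10 cKO, P10 WT, P14 cKO and P14 WT. The granule lineage part is 28.6% in P10 cKO, 40.8% in P10 WT, 33.0% in P14 cKO and 49.8% in P14 WT, and the microglia and oligodendrocyte parts are larger in P14 cKO than in P14 WT.

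The makeup differed between the libraries. Granule lineage markers led in 14 of 49 cells in P10 cKO (28.6%), 20 of 49 in P10 WT (40.8%), 31 of 94 in P14 cKO (33.0%, 23.6 to 43.4) and 129 of 259 in P14 WT (49.8%, 43.6 to 56.1). As a share of all cells, these cells had a ratio of cKO to WT of 1.52 (0.708 to 3.16) at P10 and 0.586 (0.383 to 0.874) at P14. Microglia markers led in 14 P14 cKO cells against 3 P14 WT cells, and oligodendrocyte markers in 19 against 5. Choroid plexus markers led in 0 P14 cKO cells against 6 P14 WT cells. Astroglia markers led in 14 cells of P10 cKO, 9 of P10 WT, 20 of P14 cKO and 85 of P14 WT.

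The cells led by granule lineage markers, called granule-led below, were the shallower ones. Their median depth was 3831.5 UMIs in P10 cKO, 1383.5 in P10 WT, 4044 in P14 cKO and 2788 in P14 WT. The remaining Neurod1 and Grin2b cells had medians of 12743, 9557, 10827 and 9149.5 UMIs. Within them, cells led by no list were shallower than granule-led cells, with medians of 1133.5, 974, 855.5 and 1644 UMIs. The 19 cells of P14 cKO led by oligodendrocyte markers had a median of 888 UMIs. Per 10000 UMIs, the granule lineage list had a median of 32.3, 31.9, 23.8 and 35.9 UMIs in granule-led cells and of 4.60, 5.21, 7.01 and 8.65 in the remaining cells. The largest other list had a median of 1.68, 6.56, 2.78 and 3.33 UMIs per 10000 in granule-led cells and of 115, 102, 112 and 116 in the remaining cells. These lists define the split, so the values describe it.

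**Figure D2:**
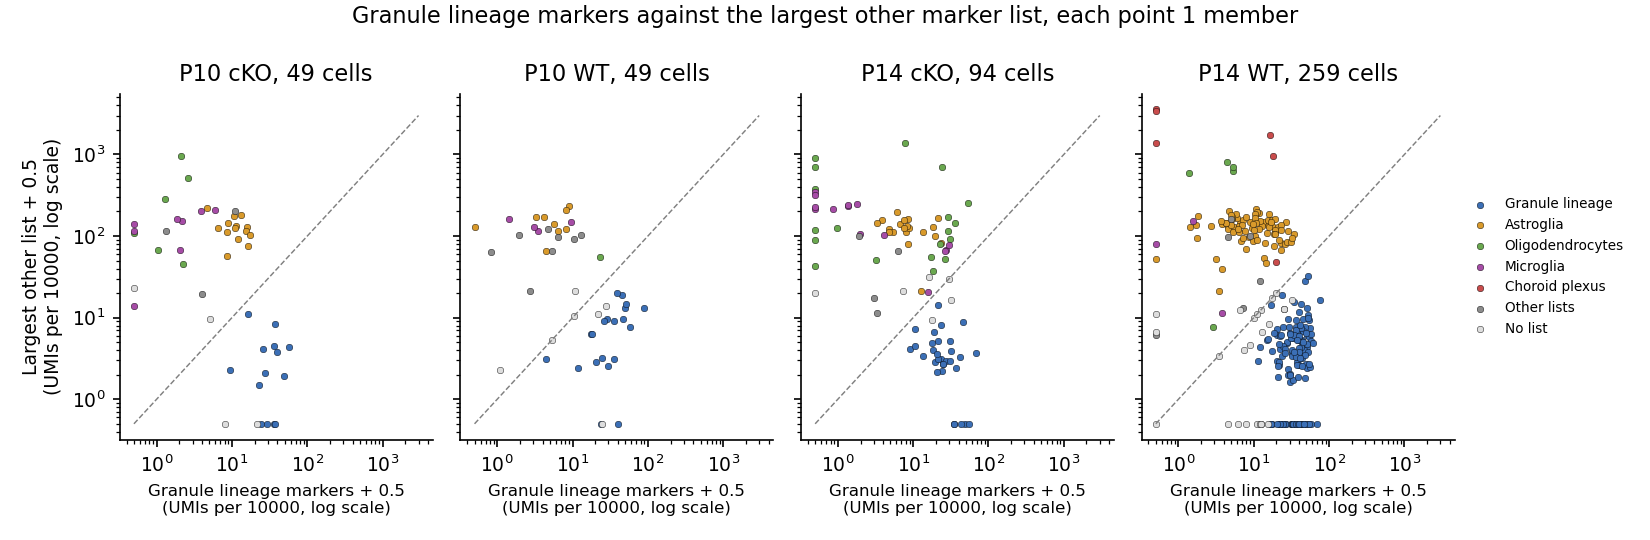
Each point is 1 Neurod1 and Grin2b cell in the library named above the panel. The x axis gives granule lineage marker UMIs per 10000 and the y axis those of the largest other marker list, both with 0.5 added and on log scales, and colour gives the leading list. Granule-led cells lie below the dashed line of equal values, and cells led by astroglia, microglia, oligodendrocyte or choroid plexus markers lie above it, mostly between 10 and 1000 on the y axis.

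A single UMI of Neurod1 was common in cells that carried other markers. It was all the Neurod1 detected in 5 of 14 granule-led cells of P10 cKO, 7 of 20 of P10 WT, 12 of 31 of P14 cKO and 36 of 129 of P14 WT. In the remaining cells it was all that was detected in 30 of 35, 18 of 29, 42 of 63 and 100 of 130. In cells with at least 3 microglia markers, taken as a type that should lack both genes, 43.5% of those outside the rule had a Neurod1 UMI in P10 cKO, 40.5% in P10 WT, 51.3% in P14 cKO and 32.1% in P14 WT, at median depths of 11976, 7711, 17068.5 and 8967 UMIs. A Grin2b UMI was found in 18.0%, 5.20%, 22.7% and 14.7% of those microglial cells, and both genes in 13.0%, 4.33%, 18.3% and 11.1%. Thinned to 2000 UMIs, Grin2b was in 6.91%, 1.18%, 11.4% and 5.84% of microglial cells, against 36.7%, 6.12%, 45.0% and 37.7% of cells with at least 3 granule lineage markers.

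Astroglia differed from microglia in Grin2b and in Nebl. Grin2b stood at 261 CPM in P10 cKO, 39.6 CPM in P10 WT, 301 CPM in P14 cKO and 275 CPM in P14 WT over cells outside the rule with at least 3 astroglia markers, and at 108, 9.07, 103 and 66.5 CPM in the microglial cells. Nebl UMIs were present in 70.8%, 62.4%, 66.4% and 80.2% of the astroglial cells. Among the Neurod1 and Grin2b cells led by astroglia markers, Nebl was present in 100%, 88.9%, 95% and 96.5%. Nebl is 1 of the 6 genes of which the rule allows 1, so a cell with Nebl alone was kept.

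Along the granule lineage, Neurod1 was highest in cells with Nhlh1 and Cntn2 and Grin2b in granule-led cells. In cells with Atoh1, Neurod1 stood at 776 CPM in P10 cKO, 1038 in P10 WT, 789 in P14 cKO and 743 in P14 WT. In cells with both Nhlh1 and Cntn2 it stood at 2271, 3231, 2095 and 2062 CPM. Granule-led cells had 1245, 1034, 820 and 1654 CPM. Cells with 2 or more of the 6 mature genes had 367, 156, 884 and 210 CPM. These cells were mixed as well. The astroglia list stood at 1156, 7949, 1464 and 6960 CPM in them, and the granule lineage list at 1346, 700, 1904 and 928 CPM. Their levels, here and below, therefore cannot be read as those of mature granule neurons alone.

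Grin2b followed another order in each library. Its level in Atoh1 cells was 42.7 CPM in P10 cKO, 6.46 in P10 WT, 72.9 in P14 cKO and 47.4 in P14 WT, and in Nhlh1 and Cntn2 cells 567, 104, 557 and 455 CPM. Granule-led cells had 966, 417, 1227 and 927 CPM, and cells with 2 or more mature genes 173, 86.4, 509 and 268 CPM. The remaining Neurod1 and Grin2b cells had 211, 141, 226 and 371 CPM of Grin2b and 69.8, 176, 129 and 161 CPM of Neurod1. Since 1 UMI of each was required, these levels describe the selection and were not tested.

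Unc5d and Zmat4 were not part of the rule, and they separated the granule-led cells from the rest. Unc5d was detected in 64.3% of granule-led cells in P10 cKO, 0 of 20 in P10 WT, 58.1% in P14 cKO and 45.0% in P14 WT, against 5.71%, 0 of 29, 9.52% and 11.5% of the remaining cells. Zmat4 was detected in 57.1%, 15.0%, 87.1% and 76.7% of granule-led cells, against 11.4%, 0 of 29, 7.94% and 19.2% of the remaining cells, which had the higher median depth. Among the remaining cells, those led by no list numbered 4, 7, 6 and 25. They had 0, 0, 0 and 626 CPM of Unc5d and 751, 0, 180 and 962 CPM of Zmat4. Over all Neurod1 and Grin2b cells, either marker was present in 34.7%, 6.12%, 38.3% and 52.9%.

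By level, Zmat4 in granule-led cells exceeded that in Nhlh1 and Cntn2 cells at P14. It was 981 CPM in granule-led cells against 439 CPM in Nhlh1 and Cntn2 cells of P14 cKO, and 849 against 402 CPM in P14 WT. At P10 it was 262 against 322 CPM in cKO and 66.7 against 30.9 CPM in WT. Unc5d was 671 against 452 CPM in P10 cKO, 0 against 17.9 CPM in P10 WT, 774 against 391 CPM in P14 cKO and 431 against 322 CPM in P14 WT. In cells with 2 or more mature genes Unc5d was lower, at 54.8, 8.64, 253 and 83.7 CPM, as was Zmat4, at 42.2, 0, 218 and 37.8 CPM.

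**Figure D3:**
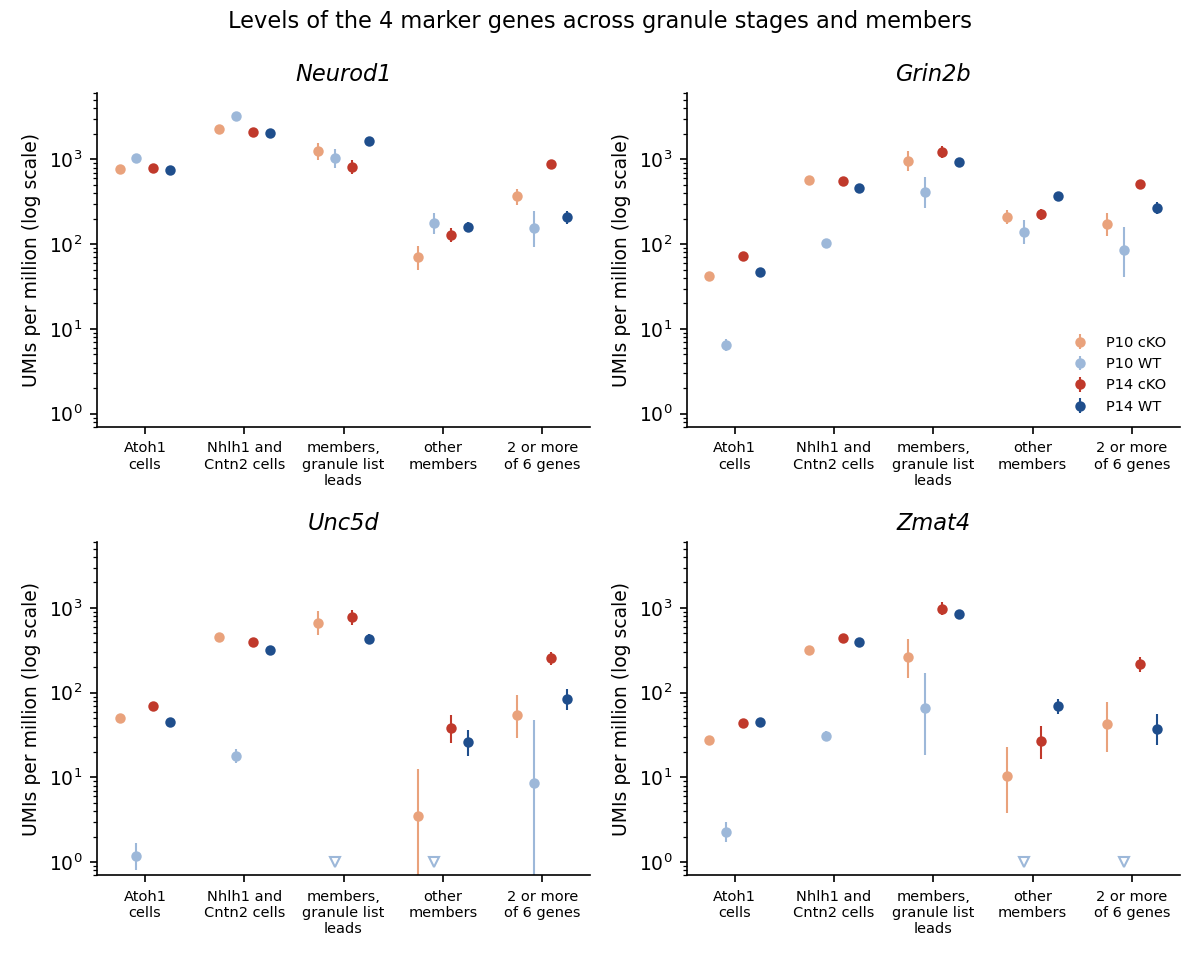
Levels of Neurod1, Grin2b, Unc5d and Zmat4 in CPM (log scale) in cells with Atoh1, cells with Nhlh1 and Cntn2, granule-led Neurod1 and Grin2b cells, the remaining Neurod1 and Grin2b cells, and cells with 2 or more of the 6 mature genes. Points are sums over cells of 1 library with exact Poisson 95% intervals, and open triangles mark a level of 0. Grin2b and Unc5d peak in the granule-led cells in both P14 libraries, whereas Neurod1 peaks in the Nhlh1 and Cntn2 cells in all 4 libraries.

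Set against Nhlh1 and Cntn2 cells of the same library, granule-led cells at P14 had more RNA of ion channels and receptors and less of young neuron genes. The summed level of the ion channel list was higher by a log2 ratio of 1.35 in P14 cKO and 0.65 in P14 WT. Mature granule neuron genes outside the rule were higher by 1.13 and 0.48, synapse genes by 0.80 and 0.25, GABA and chloride genes by 0.76 and 0.42, and glutamate receptors by 0.74 and 0.18. Cytoskeletal genes of young neurons were lower, at -0.78 in P14 cKO and -0.19 in P14 WT, as were granule lineage transcription factors, at -0.57 and -0.19, and genes of the Sonic hedgehog response, at -1.20 and -0.30. The median over single Sonic hedgehog genes was -0.74 in P14 cKO but 0.15 in P14 WT. The cell cycle list stood at -0.84 and 0.60. At P10 the mature genes stood at 1.01 in cKO and -0.30 in WT, and the Sonic hedgehog list at -0.30 and 0.63. Both intervals at -0.30 for P10 include 0. Of 2937 genes, 323 were higher and 323 lower in granule-led cells in both P14 libraries, with counting intervals on 1 side of 0. These lists hold none of the 17 genes of the rule, but Pax6, Zic1, Zic2, Neurod2, Barhl1, Meis1 and Etv1 among the transcription factors, Etv1 among the mature genes and Cbln1 among the synapse genes also served to choose the granule-led cells. The Nhlh1 and Cntn2 cells were deeper, with medians of 12414 UMIs in P14 cKO and 7263 in P14 WT, and carried other markers too. In P14 cKO their oligodendrocyte list stood at 4396 CPM beside 2988 CPM of the granule lineage list. In P14 WT their choroid plexus list stood at 1046 CPM beside 3148 CPM of the granule lineage list. The part of depth and makeup in these ratios was not tested.

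Over all Neurod1 and Grin2b cells, the summed astroglia list stood far above its level in Nhlh1 and Cntn2 cells in each library, at 4164 against 155 CPM in P10 cKO, 4797 against 204 CPM in P10 WT, 6054 against 166 CPM in P14 cKO and 7584 against 340 CPM in P14 WT. The oligodendrocyte list was higher in P10 cKO, at 15864 against 467 CPM, and in P14 WT, at 5717 against 468 CPM, and lower in P10 WT, at 334 against 2221 CPM, and in P14 cKO, at 2111 against 4396 CPM. Of 9382 genes, 1233 were higher and 1066 lower than in Nhlh1 and Cntn2 cells in all 4 libraries. Aqp4, a water channel of astrocytes, stood higher by log2 ratios of 6.61 in P10 cKO, 5.53 in P10 WT, 6.16 in P14 cKO and 5.24 in P14 WT. Gfap, the astrocyte intermediate filament, stood higher by 5.28, 5.15, 6.13 and 5.13. Genes of newborn neurons were at the other end. Sox11, a transcription factor of immature neurons, stood at -3.77, -2.41, -3.78 and -2.57, and Igfbpl1, a marker of newborn granule neurons in mouse, at -3.81, -2.77, -3.94 and -2.56.

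The targeted gene was low in all groups. Eftud2 had 29 UMIs (45.7 CPM) in P10 cKO and 16 (45.7 CPM) in P10 WT, and 25 (27.4 CPM) in P14 cKO and 76 (43.2 CPM) in P14 WT. The log2 ratio at P14 was -0.64, with a counting interval from -1.37 to 0.01 that includes 0. Since Purkinje cells are named as the deficient cells and the deleted exon is not given, these values do not check the labels. Genes of the U5 snRNP and its partners showed no 2-fold difference at P14 in 10 of 10 tested members, with a median log2 ratio of -0.16. Over all 8082 genes tested only 5.96% were 2-fold higher and 3.39% lower, so this count does not set the list apart from other genes.

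At P14, immune genes were higher and choroid plexus and myelin genes lower in cKO than in WT over all Neurod1 and Grin2b cells. Of 8082 genes with at least 50 UMIs over both libraries, 482 (5.96%) were at least 2-fold higher and 274 (3.39%) at least 2-fold lower, and the median over all was -0.07. C1qa, a subunit of complement C1q made by microglia, stood at 1436 CPM in cKO against 29.5 CPM in WT, a log2 ratio of 5.59 (5.20 to 6.03). C1qb stood at 1418 against 25.0 CPM (5.81). Ccl4, a chemokine, stood at 1236 against 5.11 CPM (7.84). Ttr, the transthyretin of choroid plexus, stood at 14.2 CPM in cKO against 4567 CPM in WT, a ratio of -8.27. The myelin genes Mag, at 51.5 CPM in cKO against 272 CPM in WT, and Mog, at 25.2 against 231 CPM, had ratios of -2.39 and -3.17. At P10, C1qa stood at 516 CPM in cKO against 502 CPM in WT, and Ttr at 0 CPM against 11.4 CPM. Other sets of cells gave other directions. With the rule applied after thinning to 2000 UMIs, which kept 381 P14 cKO and 689 P14 WT cells, the P14 ratio of Mag was 1.46. Without the Grin2b requirement that of Mog was 1.29.

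These genes were carried by few cells, and the marker lists moved with them. C1qa UMIs were in 30 of 94 P14 cKO cells against 11 of 259 P14 WT cells. Of the Ttr UMIs in P14 WT, 45.0% came from 1 cell, and of the Mog UMIs in P14 WT 41.5% did. The summed microglia list stood at 4704 CPM in P14 cKO against 132 CPM in P14 WT, the choroid plexus list at 14.2 against 4601 CPM, and the oligodendrocyte list at 2111 against 5717 CPM. Over all cells of these libraries, the microglia list stood at 1812 against 942 CPM and the choroid plexus list at 161 against 5953 CPM. The oligodendrocyte list went the other way there, at 7849 against 2254 CPM. At least 3 oligodendrocyte markers were detected in 37.2% of the Neurod1 and Grin2b cells of P14 cKO against 6.56% of P14 WT. In granule-led cells the microglia list stood at 107 against 19.6 CPM, and C1qa at 2 against 0 UMIs. The part of the few cells that carried these genes, and of the makeup of each library, in the differences at P14 was not tested.

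Immediate early genes and interferon response genes, both lists known to react to handling or immune signals, were also higher in cKO at P14 over all Neurod1 and Grin2b cells. Of 16 immediate early genes tested, 12 were at least 2-fold higher and 0 lower, with a median of 1.72. Over all genes tested, 5.96% were higher and 3.39% lower. Junb stood at 615 CPM in cKO against 92.6 CPM in WT (2.73), and Atf3 at 135 against 23.3 CPM (2.52). Of 9 interferon response genes, 7 were higher and 0 lower, with a median of 2.25. B2m, the light chain of MHC class I, stood at 749 against 96.6 CPM (2.95). At P10, Junb stood at 328 CPM in cKO against 362 CPM in WT, and B2m at 210 against 217 CPM. Of 5 interferon response genes tested at P10, 0 were at least 2-fold higher and 1 lower, with a median of -0.74, beside 30.2% higher and 11.3% lower over all genes. Over the larger set of cells that met the rule after thinning to 2000 UMIs, the median of the immediate early genes at P14 was -0.24. In granule-led cells, 0 of 5 immediate early genes tested were higher and 2 were lower, with a median of -0.59, beside 5.99% higher and 13.1% lower over all genes. There Junb had 3 UMIs against 9, and no interferon response gene reached 50 UMIs.

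**Figure D4:**
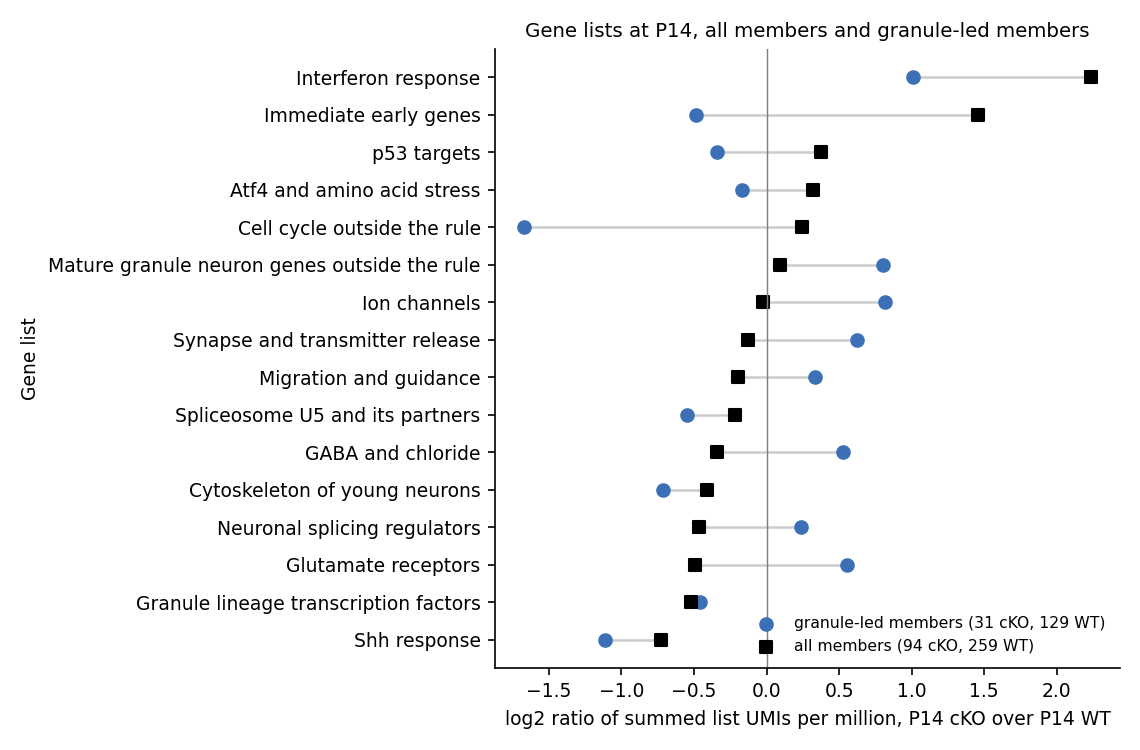
Log2 ratio of summed list levels, P14 cKO over P14 WT, for 16 gene lists (rows). Circles stand for granule-led cells (31 cKO, 129 WT) and squares for all Neurod1 and Grin2b cells (94 cKO, 259 WT), 1 library each, with no error shown. Immediate early genes lie at 1.46 over all cells and at -0.48 in granule-led cells, whereas ion channels lie at -0.03 and 0.82.

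The granule-led cells alone gave another picture at P14. Of 2472 genes tested, 148 (5.99%) were at least 2-fold higher and 323 (13.1%) at least 2-fold lower in the 31 cKO cells than in the 129 WT cells, with a median of -0.07. This subset was defined after the marker lists had been seen, and the genes named in the next paragraphs that lie outside the naming rule (Csmd1 and Dcc) were picked after their values were seen.

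Genes of young neurons stood lower in granule-led cKO cells. Of 22 cytoskeletal genes of young neurons, 8 were at least 2-fold lower and 0 higher, with a median of -0.81. Beside them, 13.1% of all genes tested were lower and 5.99% higher, and 41.8% of genes with up to 5000 intron bases were lower. Stmn1, which destabilises microtubules, stood at 598 CPM in cKO against 1606 CPM in WT, a ratio of -1.42 (-1.78 to -1.09), and the neuronal tubulin gene Tubb3 at 230 against 790 CPM, a ratio of -1.76. Of 23 granule lineage transcription factors, 5 were lower and 0 higher, with a median of -0.53. That list includes Pax6, Zic1, Zic2, Neurod2, Barhl1, Meis1 and Etv1, which also served to choose the granule-led cells. Sox11 stood at 284 against 960 CPM (-1.74), and Nhlh2, a relative of Nhlh1, at 84.3 against 220 CPM (-1.32).

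Neurod1, which the rule required, stood at 820 CPM in cKO against 1654 CPM in WT, a ratio of -1.01 (-1.32 to -0.72). Of 4 genes of the Sonic hedgehog response tested, 2 were lower and 0 higher. They were Ccnd2, a cyclin of progenitors, at 84.3 against 357 CPM (-2.02), and Sfrp1, a secreted Wnt modulator, at 15.3 against 118 CPM (-2.63). Igfbpl1 stood at 153 against 601 CPM (-1.94). Among neuronal splicing regulators, 1 of 19 was lower and 0 higher, with a median of -0.03. Over all genes tested in granule-led cells, 13.1% were lower and 5.99% higher. The splicing regulator that stood lower was Elavl2, at 92.0 against 344 CPM (-1.85).

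Several ion channel genes stood higher in granule-led cKO cells. Of 20 ion channel genes, 5 were at least 2-fold higher and 0 lower, with a median of 0.22, beside 5.99% higher and 13.1% lower over all genes tested. Among genes with over 50000 intron bases, 10.6% were higher, and their median was 0.25. Kcnd2, the A-type potassium channel Kv4.2, stood at 2998 CPM in cKO against 551 CPM in WT, a ratio of 2.44 (2.21 to 2.68), with UMIs in 24 of 31 cKO cells against 51 of 129 WT cells. Dpp6, an accessory subunit of Kv4 channels, stood at 544 against 45.7 CPM (3.55), and the calcium channel subunit gene Cacna2d3 at 958 against 220 CPM (2.12). Kcnq5, an M-type potassium channel, stood at 5796 against 2920 CPM (0.99). At P10, granule-led cells had 1654 CPM of Kcnd2 in cKO against 16.7 CPM in WT, which rests on 101 against 1 UMIs.

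Of 25 migration and guidance genes, 4 were higher and 1 lower, beside 5.99% higher and 13.1% lower over all genes tested. Nrg3, a ligand of the receptor Erbb4, stood at 1940 against 235 CPM (3.04), with UMIs in 20 of 31 cKO cells against 34 of 129 WT cells, while Erbb4 itself stood at 6364 against 5336 CPM (0.25). Dscam, an adhesion molecule, stood at 291 against 63.1 CPM (2.20). Dcc, the netrin receptor of growing axons, was the one that stood lower, at 169 against 1334 CPM (-2.95), with UMIs in 11 of 31 cKO cells against 73 of 129 WT cells. Over all Neurod1 and Grin2b cells Dcc stood at 878 against 476 CPM, but 86.2% of its cKO UMIs came from 1 cell.

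Synapse and receptor lists also held genes past 2-fold, beside 5.99% higher and 13.1% lower over all genes tested. Of 21 synapse genes, 3 were higher and 1 lower, with a median of 0.41. Nrxn3, a presynaptic adhesion gene, stood at 1296 against 309 CPM (2.07). Of 10 glutamate receptor genes, 2 were higher and 0 lower, with a median of 0.44. Grik2, a kainate receptor subunit, stood at 5988 against 4387 CPM (0.45). Grin2b, which is not on that list because the rule required it, stood at 1227 against 927 CPM (0.41). Unc5d stood at 774 against 431 CPM (0.85) and Zmat4 at 981 against 849 CPM (0.21). Csmd1, a large complement-domain protein gene, stood at 958 against 65.3 CPM (3.86), and Galntl6 at 1257 against 150 CPM (3.06), of which 1 cKO cell gave 25.0% of the UMIs.

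**Figure D5:**
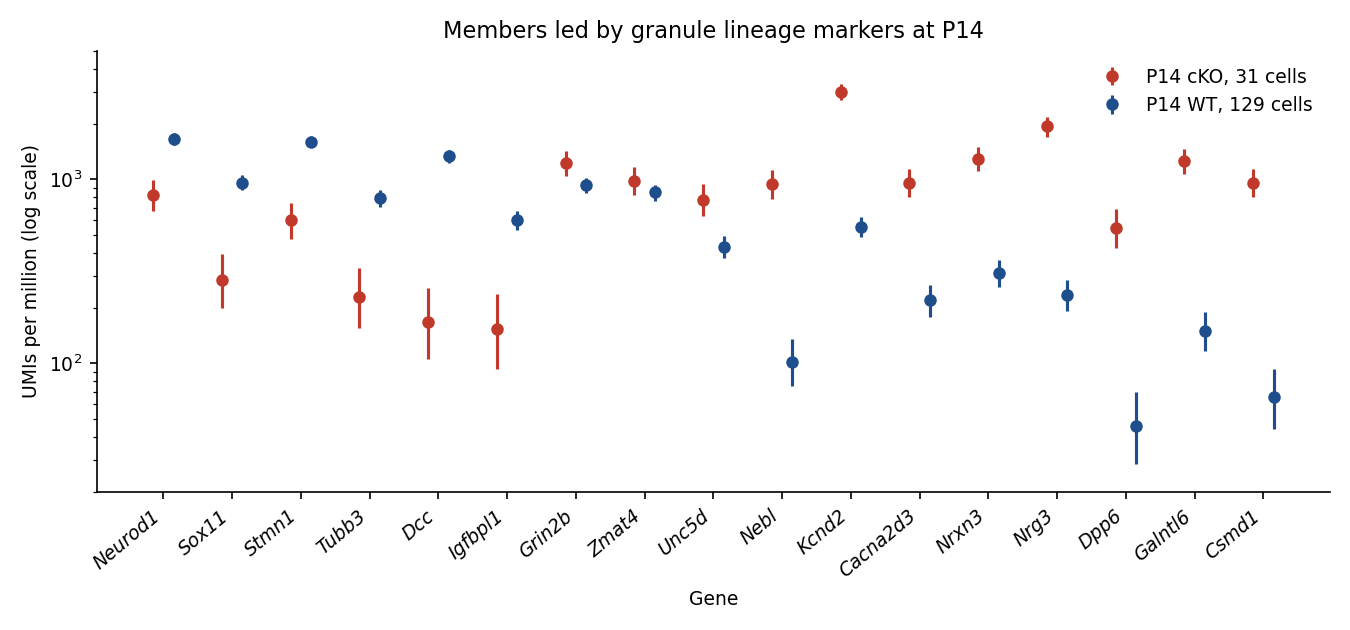
Levels of 17 named genes in granule-led cells at P14, in CPM (log scale), cKO (31 cells, red) beside WT (129 cells, blue). Points are sums over the cells of 1 library with exact Poisson 95% intervals. Genes from Neurod1 to Igfbpl1 lie lower in cKO, genes from Nebl to Csmd1 lie higher, and the intervals of Zmat4 overlap.

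Gene length moved with these differences. In granule-led cells at P14 the median log2 ratio of cKO over WT was -0.37 for 47 genes without introns, -0.87 for 337 genes with up to 5000 intron bases, -0.36 for 824 genes with 5000 to 50000, and 0.25 for 1264 genes with over 50000. Of the last group 10.6% were 2-fold higher and 2.77% lower, and of genes with up to 5000 intron bases 0.593% were higher and 41.8% lower. Kcnd2, Dpp6, Cacna2d3, Nrg3, Nrxn3, Galntl6, Csmd1 and Nebl each have over 50000 intron bases, and so do Dcc and Elavl2, which stood lower. Neurod1, Stmn1 and Sox11 have up to 5000. In Nhlh1 and Cntn2 cells at P14 the medians in the same order were 0.03, -0.05, 0.00 and 0.04. The part of intron length in the granule-led differences was not tested.

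Nebl, which the rule limits but does not exclude, divided the granule-led cells of the 2 genotypes. It stood at 943 CPM in cKO against 102 CPM in WT, with UMIs in 19 of 31 cKO cells (61.3%) against 15 of 129 WT cells (11.6%). Granule-led cells with UMIs of 1 of the 6 mature genes numbered 21 in cKO against 19 in WT, and those with none 10 in cKO against 110 in WT. The split was looked at after these values were seen.

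Within both classes the log2 ratios of 5 genes, picked for their difference between the genotypes, had the sign seen over all granule-led cells. Since the genes were picked on these same cells, the shared sign is no separate support for the differences. That of Kcnd2 was 1.54 with 1 mature gene and 0.89 with none, against 2.44 over all, and that of Dcc was -0.77 with 1 mature gene, with an interval from -1.93 to 0.31 that includes 0. Nebl, itself among the genes that differed, mostly sets the split, so the part of the classes' makeup in the differences was not tested. With 1 mature gene, Kcnd2 stood at 3762 CPM in cKO against 1291 in WT, and with none at 705 against 388 CPM. Nrg3 stood at 2310 against 495 CPM with 1 mature gene and at 828 against 178 CPM with none, where 70.4% of its cKO UMIs came from 1 cell. Sox11 stood at 296 against 519 CPM and at 245 against 1057 CPM, and Neurod1 at 859 against 1460 CPM and at 705 against 1696 CPM. Dcc stood at 133 against 229 CPM with 1 mature gene and at 276 against 1577 CPM with none.

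For the genes given next, the Nhlh1 and Cntn2 cells of the same libraries showed smaller differences between the genotypes at P14. These genes were drawn from those that differed in granule-led cells, a choice that favours smaller differences in any other cells. Kcnd2 stood at 361 CPM in cKO against 209 CPM in WT, Nrg3 at 152 against 69.7 CPM, and Csmd1 at 60.7 against 58.7 CPM. Stmn1 stood at 1916 against 2040 CPM, Sox11 at 1637 against 1830 CPM, and Dcc at 3262 against 4243 CPM. Whether the genotype difference itself differs between these cells and the granule-led cells was not tested, since each rests on 1 library per group.

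At P10 the comparison of cKO with WT moved with intron length in all 3 sets of cells examined. Of 4201 genes tested over all Neurod1 and Grin2b cells, 1267 (30.2%) were at least 2-fold higher and 475 (11.3%) at least 2-fold lower. The median log2 ratio was -0.64 for 87 genes without introns, -0.71 for 671 genes with up to 5000 intron bases, -0.17 for 1698 with 5000 to 50000, and 1.35 for 1745 with over 50000. In Nhlh1 and Cntn2 cells the median of the last group was 1.03. In granule-led cells it was 3.00 for 157 genes with over 50000 intron bases and -1.50 for 129 genes with up to 5000. The P10 cKO matrix was written by Cell Ranger 7.0.1 and the P10 WT matrix by 5.0.0, per the file headers, and whether introns were counted is not stated, so genotype and processing cannot be told apart there.

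List medians at P10 ranged widely. Median ratios were 3.67 for 15 glutamate receptor genes, 2.96 for 12 ion channel genes, 2.02 for 30 migration genes and 1.96 for 14 synapse genes. They were -0.38 for 18 cytoskeletal genes, 0.11 for 20 transcription factors and -0.29 for 14 immediate early genes. Erbb4 stood at 1470 CPM in P10 cKO against 31.4 CPM in P10 WT, and Kcnq5 at 377 CPM against 0. Stmn1, with few intron bases, stood at 139 against 842 CPM (-2.59). In the granule-led cells of P10, 14 in cKO and 20 in WT, 349 genes could be compared, of which 128 (36.7%) were higher and 129 (37.0%) lower, and erythroid markers took 0 CPM in cKO against 88591 CPM in WT.

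Between the ages in cKO, P14 over P10, the Neurod1 and Grin2b cells differed in a smaller share of genes than the genotypes did at P10 and in a larger share than they did at P14. Of 6078 genes tested, 333 (5.48%) were at least 2-fold higher and 408 (6.71%) at least 2-fold lower at P14. Interferon response genes had a median of 1.11, ion channels of 0.53 and cytoskeletal genes of 0.58. The summed level of the cytoskeletal genes differed by -0.03, and their median in granule-led cells was -0.19. The 2 cKO matrices came from different Cell Ranger versions and the libraries differed in Xist, so age cannot be told apart from either.

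Only a fit over both ages allowed a test with a genotype term. That term also draws on P10, where genotype cannot be told apart from the Cell Ranger version or from the difference in sex-linked RNA. Over the 4 libraries, with age as a term and 1 residual degree of freedom, edgeR's quasi-likelihood test called 0 of 9850 genes (0%) at an adjusted p under 0.05, with 285 at an unadjusted p under 0.05 and a smallest adjusted p of 0.99985. DESeq2 called 9 genes on the same sums (0.0914%), 7 higher and 2 lower. On simulated counts with the dispersion of these data, edgeR recovered 2% and DESeq2 23.5% of genes changed 4-fold, and DESeq2 also called 6 unchanged genes, so a count of 0 does not show that genes were alike in the genotypes, and the 9 calls of DESeq2 are close in number to its false calls.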

How the data were processed

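Cerebella of Eftud2 cKO and WT mice at P10 and P14 were profiled by the authors, 1 library per group. The deposited matrices hold counts (UMIs per gene and barcode) without normalization. Per the submitters' processing notes the build was mm10 and the tools Cell Ranger 3.0.2 and Seurat 4.1.3; per the file headers the matrices were written by Cell Ranger 7.0.1 (P10 cKO), 5.0.0 (P10 WT) and 7.1.0 (both at P14). Introns came from GENCODE vM21.

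The members and gene lists were chosen with earlier results of these data known. Levels are UMIs of a gene over all UMIs of the cells in a library. For log2 ratios 0.5 UMI was added to both sums, and they needed 50 UMIs over both libraries, and were counted at 2-fold (log2 of 1 or more). Intervals are exact (95%). On simulated counts of P14 cKO over P14 WT with 8085 genes, all of 200 genes changed 4-fold were recovered and 0.254% of unchanged genes passed 2-fold. These counts had Poisson error only, and the changed genes were drawn from those with at least 200 UMIs. The simulation held no differences between cells or between libraries, so 0.254% is not an error rate for the real counts. Doublets were kept, with a Scrublet score above 0.22 (Scanpy 1.11.5) as an alternative. Thinning took cells to 2000 UMIs. As an alternative setting the rule was applied to the thinned counts, so the set of cells changed with it. The fit over both ages used edgeR 4.0.16 with TMM factors and filterByExpr at a minimum count of 10, or DESeq2 1.42.0, in R 4.3.3. Python 3.11.15, NumPy 2.4.6, SciPy 1.17.1, pandas 2.3.3 and matplotlib 3.10.9 were used.

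Named genes were those of the rule and its markers, Eftud2, the 12 with the highest and the 12 with the lowest bound at P14, the 8 highest and the 8 lowest against the other stages and between ages in cKO, and up to 6 per list by UMIs or by size of ratio. Some genes that this rule names are not reported here.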

Additional observations from a re-analysis of the deposited data

Results flagged for a closer look

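For 7 named genes the log2 ratio of cKO over WT in the Neurod1 and Grin2b cells had opposite signs at P14 and P10. The difference between the ages was not tested, since each ratio rests on 1 library per group. Among myelin and glial genes, the ratio was -3.87 at P14 and 2.43 at P10 for Gsn, -3.65 and 4.38 for Mal, -2.39 and 9.83 for Mag, and -3.17 and 5.24 for Mog. Oligodendrocyte markers led in 19 P14 cKO cells against 5 P14 WT cells and in 6 P10 cKO cells against 1 P10 WT cell, and 79.5% of the Mog UMIs in P10 cKO came from 1 cell. Among neuronal genes it was -1.22 and 7.21 for Rbfox1, -1.35 and 1.55 for Elavl3, and -2.57 and 1.26 for Ebf3. Mag had 0 UMIs in P10 WT, so its P10 ratio depends on the 0.5 UMI added.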

How the results depend on the processing

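The ratio of the share of Neurod1 and Grin2b cells, cKO over WT, depended on the rule and on depth. At P14 it was 0.886, and 1.42 thinned to 2000 UMIs, 0.679 with none of the 6 mature genes, 1.34 with Grin2b not required, 0.586 where granule lineage markers lead and 0.641 without cells with 3 markers of another list. At P10 it was 2.17, and 8.86 thinned, 4.73 with at least 2 Grin2b UMIs and 0.407 with Grin2b not required. Genes at least 2-fold higher and lower at P14, 482 and 274, numbered 163 and 121 thinned, 189 and 172 with at least 2 Grin2b UMIs, and 939 and 583 at a minimum of 20 UMIs. Lower genes numbered 776 with no mature gene, 572 with Grin2b not required and 161 with 5 UMIs added, and higher genes 148 where granule lineage markers lead and 193 without cells of another list. At P10, 1267 and 475 became 839 and 287 thinned, 432 and 265 with at least 2 Grin2b UMIs, 358 and 148 with no mature gene, 2627 and 848 with Grin2b not required, 128 and 129 where granule lineage markers lead, 156 and 151 without cells of another list, and 2203 and 895 at 20 UMIs. The fit over both ages called 4 genes thinned, 14 with at least 2 Grin2b UMIs, 15 with no mature gene, 17 without cells of another list, 9 with DESeq2 and 90 with no filter on low counts, against 0.

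The direction of 2 list medians turned. That of immediate early genes at P14 was -0.24 thinned, -0.59 where granule lineage markers lead and -0.99 without cells of another list, and that of the Sonic hedgehog response at P10 was 0.11 thinned, 0.60 with at least 2 Grin2b UMIs and 1.28 with Grin2b not required. Among single genes at P14, thinning gave 1.46 for Mag, 0.19 for Rbfox1, -0.10 for Atf3, -0.27 for H2-D1 and -0.39 for Junb. With no mature gene, Kcnd2 stood at -1.73, Nrg3 at -0.33 and Cacna2d3 at -0.55 over all Neurod1 and Grin2b cells. With Grin2b not required, Gsn stood at 0.14, Mag at 0.98, Mal at 0.78 and Mog at 1.29. Where granule lineage markers lead, H2-D1 stood at -0.058, Jun at -0.59 and Rbfox1 at 0.62, and without cells of another list H2-D1 at -0.10, Jun at -0.72, Junb at -0.44 and Rbfox1 at 0.38. At P10, Gsn was -1.49 with no mature gene. The cause was not tested. Both alternatives built on marker lists were chosen after seeing the data.

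Of 843 single-gene values under alternatives, 579 stayed within the counting interval, 244 moved and 20 turned direction. TMM factors moved all ratios by a log2 of 0.01 at P14 and by -0.03 at P10. No paired analysis was possible because each group has 1 library. Leaving out a library leaves no residual degrees of freedom, so it was not run. With 14 to 129 granule-led cells per library, genes under 50 UMIs over both libraries could not be compared.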
